A study of Mus musculus with 4 samples.

Results

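Expression of 9 factors of globose basal cells and neurogenic progenitors was examined in cells of the olfactory lineage that lacked lamin B1. The set was chosen by symbol and holds Neurog1, Neurod1, Kit, Hes6, Sox2, Pax6, Lgr5, Insm1 and Ezh2, which are 9 of the 23337 genes counted. RNA-seq had been performed on Tomato-positive cells that were sorted by flow cytometry from regenerated olfactory epithelium, with 1 mouse per sample. K5Cre, which is active in horizontal basal cells, had switched on the red fluorescent protein Tomato and deleted floxed Lmnb1 in those stem cells, and both were inherited by their progeny. The tissue was therefore a mosaic, and a sorted sample held stem cells, progenitors, neurons and supporting cells together. The 2 mutant samples were Lmnb1-/- and the 2 control samples were Lmnb1+/-, so the controls also lacked 1 functional allele and none of the samples was wild type. All mice were of mixed background, received 50 mg/kg methimazole, which destroys much of the epithelium, and recovered for 4 weeks. Control 1 and mutant 1 formed experimental group 1 and control 2 and mutant 2 formed experimental group 2. Littermates within an experimental group shared age, sex, handling and sequencing, whereas by the design text of the series the groups differed in treatment, parents, age and sex.

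In the adult olfactory epithelium, horizontal basal cells are reserve stem cells that are recruited after severe damage, and globose basal cells are the dividing population from which new neurons come. Early globose basal cells express the transcription factors Sox2 and Pax6, and transit-amplifying cells then express proneural basic helix-loop-helix (bHLH) factors. Neurog1 and then Neurod1 mark the step at which a cell commits to the neuronal fate, before immature and finally mature sensory neurons form. Sox2 and Pax6 are also known from horizontal basal cells and from sustentacular cells, the supporting cells of the epithelium, so neither marks progenitors alone.

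Between 14833396 and 23704638 reads per sample were assigned to genes, and 3 counts, taken as the smallest detected number, correspond to 0.127 to 0.202 CPM (reads of a gene per 1000000 reads of its library). Lmnb1, the targeted gene, had 477 and 395 counts in controls 1 and 2 and 326 and 149 counts in mutants 1 and 2. It was lower in both mutants, but the difference did not pass the test (log2 fold change -0.72, SE 0.31, edgeR adjusted p = 0.195). These counts cover all exons of the gene, whereas the floxed part is exon 2. The paper reports that most Tomato-positive cells of mutant tissue lacked lamin B1 staining. By its PCR, Lmnb1 transcript was depleted in sorted mutant cells. Mutant 1 stood apart from the other libraries. It had 1603 genes at 0 counts, compared with 5173 to 6053 elsewhere, and 39.4% of its uniquely aligned reads lay outside annotated genes, compared with 22.1% to 24.9%. Genes that were silent in the other libraries carried a median of 1.80 counts per kb of exon in mutant 1, which would make up 10.6% of its Lgr5 count, 2.43% of its Kit count and at most 2.03% of the count of any other factor.

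Of the 9 factors, 3 were higher in Lmnb1-/- cells and 0 were lower at an edgeR adjusted p under 0.05. Kit rose most, followed by Hes6 and Pax6. Among all 15438 genes tested, 1.28% were higher and 4.30% were lower by the same test. The median log2 fold change was 0.46 over the 9 factors and -0.01 over all genes tested. Of the factors, 6 were higher in the mutant of both experimental groups, namely Kit, Neurod1, Hes6, Sox2, Pax6 and Ezh2, as were 29.8% of all genes tested. Both mutants lay above both controls for 3 factors, Kit, Neurod1 and Ezh2, and for 12.6% of all genes tested. All 9 factors passed the filter of more than 1 CPM in at least 2 samples, and each of them exceeded 1 CPM in every sample. The calls rest on a model with 1 residual degree of freedom. With edgeR's quasi-likelihood test 1 factor passed, Kit, and without experimental group in the model 0 passed, with 1 at an unadjusted p under 0.05.

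**Figure D1:**
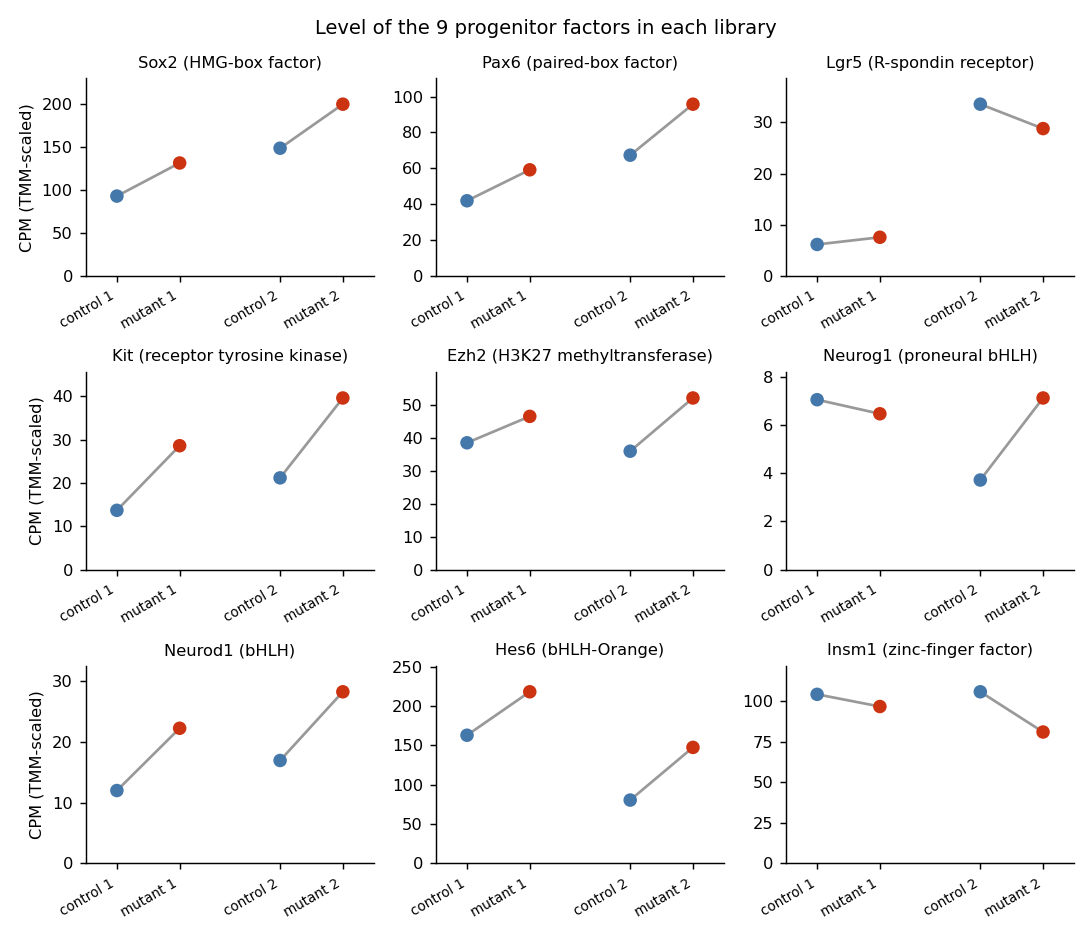
Level of each of the 9 factors in the 4 libraries, in CPM scaled by TMM factors, on linear axes that start at 0. Blue points are Lmnb1+/- controls, red points are Lmnb1-/- mutants, and grey lines join the littermates of an experimental group. Kit climbs in both pairs from 13.7 to 28.6 and from 21.2 to 39.6 CPM, whereas Lgr5 separates the experimental groups and Insm1 stays between 80.9 and 106 CPM.

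To compare the factors with each other, CPM was divided by the length of the principal annotated transcript. On this scale Hes6 had the highest mean level, 114 CPM per kb, followed by Sox2 at 69.7, Insm1 at 31.2, Pax6 at 23.0 and Ezh2 at 15.5. The bHLH factors that mark commitment were scarce, with Neurod1 at a mean of 7.26 and Neurog1 at 3.61 CPM per kb, and the receptors Kit and Lgr5 had means of 4.95 and 4.03. The ranges over the 4 samples of neighbours in this order overlapped, except between Sox2 and Insm1 and between Ezh2 and Neurod1. Within samples the order was firmer for some of them, since Pax6 exceeded Ezh2 and Neurod1 exceeded Kit in 4 of 4 samples, whereas Kit exceeded Lgr5 in 3 and Lgr5 exceeded Neurog1 in 2. In control 2, for example, Sox2 exceeded Hes6 (72.4 against 60.3 CPM per kb). With length taken over all annotated exons of a gene, Pax6 moved from place 4 to place 6 and Neurod1 from place 6 to place 4. Lgr5 varied most, by 5.47-fold from its lowest to its highest sample, and Insm1 varied least, by 1.31-fold.

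Kit, the receptor tyrosine kinase for stem cell factor and a surface marker of globose basal cells, lies on the forward strand at chr5:75574916-75656722 (mm10) and its principal transcript has 21 exons. The controls had 13.7 and 21.2 CPM, in groups 1 and 2, and the mutants 28.6 and 39.6 CPM. Both mutants exceeded both controls, and within experimental groups the mutant was 2.08-fold and 1.87-fold higher. Its log2 fold change was 0.98 (SE 0.24, 95% interval 0.51 to 1.45), a 1.98-fold rise (edgeR adjusted p = 0.00249). It also passed with edgeR's quasi-likelihood test and with DESeq2 (adjusted p = 0.0342 and 0.0198). Experimental group did not move Kit past the threshold (log2 fold change 0.55, SE 0.24, edgeR adjusted p = 0.0681).

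Kit is also made by mast cells and melanocytes, and markers of both were examined. Of 9 mast cell markers, 8 had 0 to 11 counts in every library and at most 5 counts outside mutant 1, among them the proteases Cpa3, Cma1 and Tpsb2. The ninth, Hdc, whose product makes histamine, had 78.7 and 34.7 CPM in the controls and 50.8 and 30.2 CPM in the mutants, and its log2 difference of -0.42 (SE 0.18) did not pass (edgeR adjusted p = 0.188). Summed over 5 melanocyte markers the level was 4.41 to 8.46 CPM, highest in mutant 1. The most abundant, Tyr and Pmel, had log2 fold changes of 0.60 (SE 0.64) and -1.22 (SE 1.19), and neither passed. Dct, named after its values were seen, had 0 counts in control 1 and mutant 2, 13 in control 2 and 30 in mutant 1. The ligand gene Kitl, which encodes stem cell factor, rose with Kit. It had 57.6 and 92.0 CPM in controls 1 and 2 and 88.2 and 125 CPM in mutants 1 and 2, a log2 rise of 0.53 (SE 0.17, edgeR adjusted p = 0.0474). Kitl was 1 of 11 genes of Kit ligand and signal relay that was higher, 0 were lower, and their median log2 fold change was 0.07.

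Among the bHLH factors, Neurog1 commits progenitors to the olfactory neuron fate and is encoded by a single exon at chr13:56250478-56252163 on the reverse strand. Its level was 7.04 CPM in control 1 and 3.72 CPM in control 2, compared with 6.46 CPM in mutant 1 and 7.12 CPM in mutant 2. Control 2, with 78 reads, stood below the other libraries, which lay within 6.46 to 7.12 CPM. Consequently the ratio of mutant to control was 0.92 for the first pair and 1.89 for the second pair. The log2 fold change of 0.40 (SE 0.53, 95% interval -0.64 to 1.43) did not pass (edgeR adjusted p = 0.825), and its interval holds changes of either sign.

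Neurod1 acts after Neurog1 and promotes exit from the cell cycle and neuronal differentiation. It lies at chr2:79452521-79456751 on the reverse strand, and 201 bases of its exons, 7.37%, are shared with exons of Cerkl on the same strand, where reads cannot be assigned to 1 gene. Neurod1 had 12.0 and 16.9 CPM in controls 1 and 2 and 22.2 and 28.2 CPM in mutants 1 and 2. Both mutants were above both controls, with ratios of 1.85 and 1.66 within experimental groups. Its log2 fold change was 0.81 (SE 0.28, 95% interval 0.27 to 1.36), which lay just outside the threshold (edgeR adjusted p = 0.0578). It passed in 1 of 12 alternatives, when genes had to exceed 1 CPM in all 4 samples (edgeR adjusted p = 0.0433), and did not with edgeR's quasi-likelihood test (adjusted p = 0.107) or DESeq2 (adjusted p = 0.135).

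Hes6 belongs to the Hairy and Enhancer of split family, but unlike its relatives it promotes neurogenesis by opposing Hes1. It lies at chr1:91411483-91414038 on the reverse strand. Experimental group 1 had 163 CPM of Hes6 in the control and 218 CPM in the mutant, and experimental group 2 had 80.5 and 147 CPM. Mutant 2 was thus below control 1, and the genotypes overlapped, but each mutant exceeded its own littermate by 1.34-fold and 1.83-fold. The log2 fold change was 0.65 (SE 0.20, 95% interval 0.25 to 1.04), a 1.56-fold rise (edgeR adjusted p = 0.0337). With edgeR's quasi-likelihood test Hes6 did not pass (adjusted p = 0.0539), whereas with DESeq2 it did (adjusted p = 0.00560). Hes6 was the only factor that passed the test as lower in experimental group 2 than in experimental group 1 (log2 fold change -0.79, SE 0.20, edgeR adjusted p = 0.000843).

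Neurog1 and Neurod1 proteins bind E-boxes, DNA of the form CANNTG, as dimers with E-proteins such as Tcf3, Tcf4 and Tcf12. The 250 bases upstream of an annotated start were therefore read for the factors in the RefSeq promoter table (GRCm38.p6), which matched 7 of the 9. Kit, Hes6 and Pax6 had 2 starts each in that table, and only the start nearest the outer end of the gene was read. Hes6 held 3 E-boxes, with the first base of CACCTG at 220 bases before the start, that of CAGCTG at 171 and that of CAACTG at 164. Neurod1 held 1, whose letters were CATATG, at 242 bases before its start. Kit, Pax6, Sox2, Neurog1 and Ezh2 held 0 in this window. CANNTG reads the same on both strands, it was present in 66.2% of the 32851 windows in the table, and 12.2% held 3 or more. GC content was 60.8% to 72.0% in the windows of the 7 factors, compared with a median of 52.4%. Hes6 and Pax6 are shown because both rose and because the window does not reach into their own annotated exons. Capitals mark E-boxes.
Hes6, chr1:91414039-91414288, reverse strand: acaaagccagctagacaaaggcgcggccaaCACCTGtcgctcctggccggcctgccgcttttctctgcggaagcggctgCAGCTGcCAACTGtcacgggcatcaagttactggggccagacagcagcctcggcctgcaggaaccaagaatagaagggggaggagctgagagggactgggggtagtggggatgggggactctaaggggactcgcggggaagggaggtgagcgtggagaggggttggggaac
Pax6, chr2:105668646-105668895, forward strand: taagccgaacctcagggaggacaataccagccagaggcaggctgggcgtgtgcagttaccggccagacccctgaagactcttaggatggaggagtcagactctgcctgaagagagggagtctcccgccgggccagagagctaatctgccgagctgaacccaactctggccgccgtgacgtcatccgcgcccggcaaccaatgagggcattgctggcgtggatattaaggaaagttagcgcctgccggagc
The letters describe the DNA and not binding, and absence of a match covers only this window.

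Other bHLH factors and their antagonists did not pass the test. Of 11 bHLH neurogenic factors and E-proteins, 7 were tested and 0 passed in either direction, with a median log2 fold change of 0.20. The E-protein genes Tcf4 and Tcf12 had log2 fold changes of 0.10 (SE 0.18) and 0.04 (SE 0.18). Of 9 helix-loop-helix repressors of neurogenesis, including Hes, Hey and Id genes, 0 passed and the median was 0.13. The most abundant of them, Hey1 and Id4, had log2 fold changes of 0.32 (SE 0.21) and -0.47 (SE 0.18).

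Of the early neurogenic markers, the Notch pathway genes Mfng and Dll1 rose. Of the 7 markers, 6 were tested, 2 were higher and 0 were lower. Their median log2 fold change was 0.55. Mfng, which encodes a fringe glycosyltransferase that modifies Notch, had 29.7 and 11.6 CPM in controls 1 and 2 and 44.8 and 28.8 CPM in mutants 1 and 2. Its log2 fold change was 0.94 (SE 0.25, edgeR adjusted p = 0.00677). The Notch ligand gene Dll1 had 31.8 and 33.0 CPM in controls and 55.9 and 44.5 CPM in mutants, so that both mutants exceeded both controls (log2 fold change 0.63, SE 0.19, edgeR adjusted p = 0.0290). Like Hes6, Mfng was lower in experimental group 2 (log2 fold change -0.99, SE 0.25, edgeR adjusted p = 0.000668).

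Sox2, an HMG-box factor that keeps progenitors undifferentiated, is a single-exon gene at chr3:34650405-34652461 on the forward strand. Sox2 stood at 93.1 CPM in control 1 and 132 CPM in mutant 1, and at 149 CPM in control 2 and 200.3 CPM in mutant 2. Each mutant exceeded its littermate, by 1.41-fold and 1.34-fold, but mutant 1 lay below control 2. The log2 fold change of 0.46 (SE 0.19, 95% interval 0.10 to 0.83) did not pass (edgeR adjusted p = 0.147), although it did with DESeq2 (adjusted p = 0.0478). Pax6, a paired-box and homeobox factor that acts with Sox2 in several sensory epithelia, lies at chr2:105668900-105697364 on the forward strand. Its level was 41.9 and 67.3 CPM in controls 1 and 2 and 59.1 and 95.8 CPM in mutants 1 and 2. The within-group ratios of 1.41 and 1.42 were nearly equal, and the log2 fold change was 0.50 (SE 0.16, 95% interval 0.18 to 0.83), a 1.42-fold rise (edgeR adjusted p = 0.0435). Pax6 sat close to the threshold and did not pass with DESeq2 (adjusted p = 0.121) or edgeR's quasi-likelihood test (adjusted p = 0.0678).

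Sox2 and Pax6 had almost the same profile over the 4 samples. With log2 CPM centred on the mean of each gene, they lay 0.07 apart (Euclidean distance over 4 samples), the smallest distance between any 2 of the 9 factors, followed by 0.21 between Neurod1 and Kit. Both also differed between experimental groups. Sox2 rose from group 1 to group 2 by 0.64 in log2 units (SE 0.19, edgeR adjusted p = 0.00357) and Pax6 by 0.69 (SE 0.16, edgeR adjusted p = 0.000262). Summed over 7 sustentacular markers, CPM was 6009 and 10886 in controls 1 and 2 and 7851 and 14389 in mutants 1 and 2, which is the same order of samples. The sum was 1.31-fold and 1.32-fold higher in the mutant of experimental groups 1 and 2, with 0 of 7 markers past the threshold. Of the markers 5 had positive and 2 had negative log2 fold changes, with a median of 0.26. Cyp1a2, Cbr2 and Sult1c1 did not follow the order of Sox2 and Pax6, whereas Cyp2g1, Ermn, Krt8 and Krt18 did. Cyp1a2, at -0.10, was below the littermate control in mutant 1 (86.6 against 94.0 CPM) and in mutant 2 (152 against 161 CPM). Cbr2 was higher in mutant 1 than in control 2 (4843 against 4287 CPM). Sult1c1 was lower in mutant 2 than in control 2 (1005 against 1290 CPM). Cyp1a2, Sult1c1, Ermn, Krt8 and Krt18 were named after their values were seen. The most abundant sustentacular markers, Cbr2 and Cyp2g1, had log2 fold changes of 0.50 (SE 0.32) and 0.38 (SE 0.31). The part of sustentacular cells in the values of Sox2 and Pax6 was not tested. Because sorted populations were measured in bulk, a change in the share of a cell type and a change in RNA per cell cannot be told apart for any gene here. Of 9 further Sox and Pax genes 4 were tested and 0 passed, with log2 fold changes of 0.34 (SE 0.17) for Sox21 and 0.16 (SE 0.29) for Sox9.

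Insm1, a zinc-finger repressor that drives the transition of progenitors to terminal neurogenic divisions, is a single-exon gene at chr2:146221921-146225020 on the forward strand. It was the only factor with a negative log2 fold change. Insm1 had 104 and 106 CPM in controls 1 and 2 and 96.5 and 80.9 CPM in mutants 1 and 2, so both mutants were below both controls, as were 13.3% of all genes tested. The log2 fold change of -0.25 (SE 0.18, 95% interval -0.60 to 0.11) did not pass (edgeR adjusted p = 0.580). This interval overlapped those of Neurog1 (-0.64 to 1.43), Lgr5 (-0.55 to 0.60), Ezh2 (0.04 to 0.77) and Sox2 (0.10 to 0.83). It did not overlap those of Kit, Neurod1, Hes6 and Pax6, and differences between factors were not tested. Without experimental group in the model the value of Insm1 was -0.24 (SE 0.44), so the width of its interval depends on the model. Of 15 other neurogenic transcription factors, 14 were tested, 0 passed and 6 had negative values, with a median of 0.08. Sox11 and Ebf2, the most abundant of them, had log2 fold changes of 0.19 (SE 0.23) and -0.39 (SE 0.22). Of 8 immature neuron markers 1 was lower, Dcx, which encodes a microtubule-associated protein (log2 fold change -0.63, SE 0.18, edgeR adjusted p = 0.0148). The summed immature neuron markers were 0.78-fold and 0.79-fold of the littermate control.

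Lgr5, a receptor for R-spondins that marks dividing globose basal cells and other epithelial stem cells, lies at chr10:115450311-115587780 on the reverse strand and its principal transcript has 18 exons. It had 6.14 CPM in control 1 and 7.55 in mutant 1, but 33.6 in control 2 and 28.8 in mutant 2. The experimental groups did not overlap, and the level was 4.57-fold higher in group 2 (log2 fold change 2.19, SE 0.30, 95% interval 1.61 to 2.77, edgeR adjusted p = 5.95e-11). No difference by genotype was detectable (log2 fold change 0.02, SE 0.30, 95% interval -0.55 to 0.60, edgeR adjusted p = 0.990). The ratio of mutant to control was 1.23 for the first pair and 0.86 for the second, and the fitted value was below 0 after subtraction of the mutant 1 background (-0.03). Of 12 other genes of the R-spondin receptor pathway 9 were tested and 0 passed. All 9 had positive fitted values with a median of 0.66, but with SE of up to 1.11. Within pairs some of these genes were lower in the mutant, and the median log2 ratio was 0.34 in the first pair and 0.29 in the second. Lgr4, the most abundant relative of Lgr5, had a log2 fold change of 0.19 (SE 0.19), and Rnf43, a ubiquitin ligase that the pathway inhibits, had 0.20 (SE 0.24). In the group comparison Lgr4 also rose, by 0.73 (SE 0.19, edgeR adjusted p = 0.000958).

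Ezh2, the catalytic subunit of Polycomb repressive complex 2 (PRC2), methylates histone H3 at lysine 27 and is abundant in dividing progenitors. It lies at chr6:47530139-47595341 on the reverse strand. Ezh2 had 38.5 and 36.0 CPM in controls 1 and 2 and 46.5 and 52.1 CPM in mutants 1 and 2. Both mutants exceeded both controls, by 1.21-fold and 1.45-fold within experimental groups, but the log2 fold change of 0.40 (SE 0.18, 95% interval 0.04 to 0.77) did not pass (edgeR adjusted p = 0.232). Experimental group made no detectable difference (log2 fold change 0.03, SE 0.18, edgeR adjusted p = 0.919). Of 12 PRC2 partners and H3K27 demethylases, 0 were higher and 1 was lower. The lower gene was Phf1, an accessory subunit, at -0.59 (SE 0.17, edgeR adjusted p = 0.0171), and the core subunits Suz12 and Eed, named after their values were seen, had 0.06 and 0.11 (edgeR adjusted p = 0.941 and 0.867).

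Several cell cycle genes were higher in mutants. Of 14 tested, 8 were higher and 0 were lower. The median log2 fold change was 0.82, and medians of the ratios were 0.83 and 0.95 in the pairs of experimental groups 1 and 2. Ccna2, the S and G2 phase cyclin, rose by 1.33 (SE 0.29, edgeR adjusted p = 0.000518) and Top2a, which untangles replicated DNA, by 0.98 (SE 0.16, edgeR adjusted p = 5.93e-07). The proliferation marker Mki67 rose by 0.81 (SE 0.19) and the replication licensing gene Mcm5 by 0.91 (SE 0.20). Summed CPM of the list was 325 and 335 in controls and 535 and 580 in mutants. The part of this difference in the values of Kit, Neurod1 and Ezh2 was not tested.

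**Figure D2:**
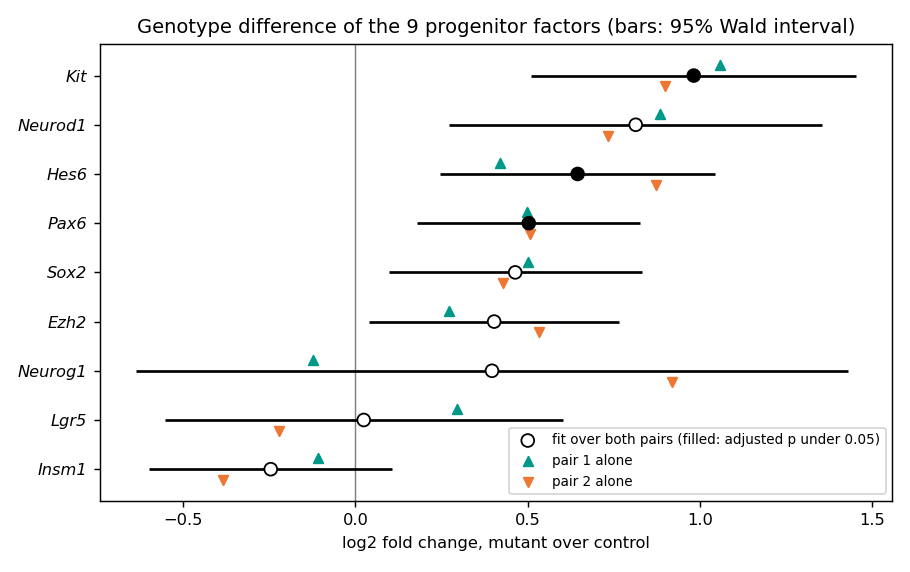
Log2 fold change of mutant over control for the 9 factors, ordered by size. Circles are the model over both experimental groups, filled at an edgeR adjusted p under 0.05, with 95% Wald intervals as bars, and triangles are the ratios within experimental group 1 (upward) and 2 (downward). Pairs nearly coincide for Pax6 (0.50 and 0.51), and they lie on opposite sides of 0 for Neurog1 and Lgr5.

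Between experimental groups 4 factors passed the test. From group 1 to group 2, 3 of these rose, Sox2, Pax6 and Lgr5, and 1 fell, Hes6. The same test called 17.7% of all genes higher and 14.0% lower, so calls in this comparison were common among all genes. For those factors both samples of group 2 lay on the same side of both samples of group 1, above for 3 factors and below for 1, as did 31.4% and 30.1% of all genes tested. Neurog1, Neurod1, Kit, Insm1 and Ezh2 did not pass, with log2 fold changes from -0.39 (SE 0.53) for Neurog1 to 0.55 for Kit. Treatment, parents, age and sex all change with experimental group by the design text. Sample preparation and sequencing were shared within a group, and whether they differed between groups is not stated. The parts of all these in the group differences cannot be told apart. Alignments tallied as not unique, which were not counted, made up 68.3% and 62.7% of all tallied entries in the samples of group 1. In group 2 they made up 26.3% and 25.9%. A read can be tallied at more than 1 alignment, so these are not shares of reads. The part of this difference between groups in the values of the factors was not tested.

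**Figure D3:**
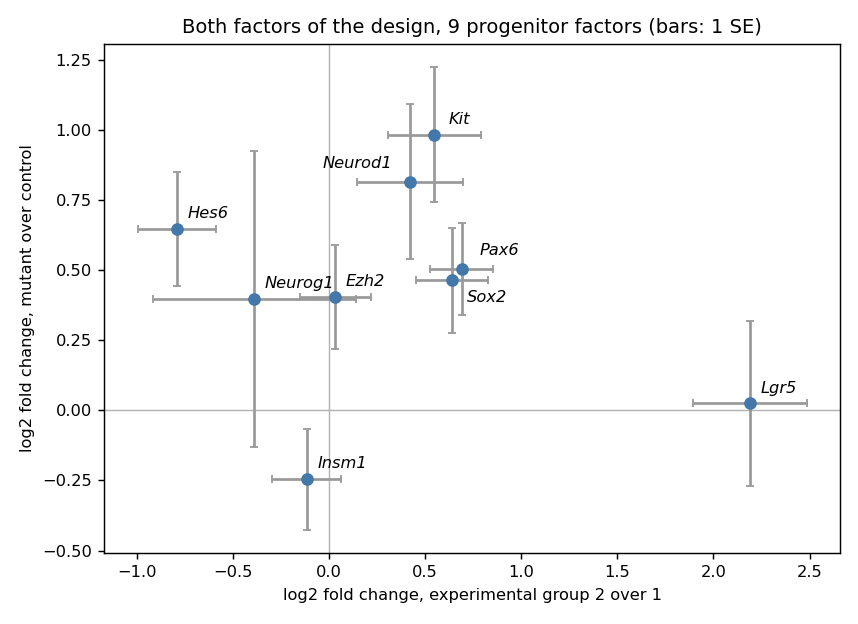
The 2 coefficients of the model for each factor, with experimental group 2 over 1 on the horizontal axis and mutant over control on the vertical axis, both as log2 fold changes with bars of 1 SE. Lgr5 lies far right at 2.19 and near 0 vertically, Hes6 is high in mutants but low in group 2, and Sox2 and Pax6 sit together.

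Genes with the most similar profile were sought for each factor among all genes tested, by distance of centred log2 CPM over 4 samples. Sox2 was closest to Slc26a7, an anion transporter gene (distance 0.02), followed by Vwa5a and the homeobox gene Otx2. Pax6 was closest to Myb, the proto-oncogene of dividing progenitors (0.04), and shared Vwa5a and Slc26a7 with Sox2. Neurod1 was closest to Hebp2 (0.03), followed by St18, a zinc-finger factor of the Myt family (0.05), and Cav2. Kit was close to Ttc24 and Hmcn1, and Hes6 was closest to Smpdl3b, Mrc2 and Grasp. Nearest to Lgr5 were Has2, which encodes a hyaluronan synthase (0.17), Chi3l3 and the mucin gene Muc4. Nearest to Neurog1 were Rcl1, 2610019E17Rik and Mrpl48, nearest to Insm1 were Gfod1, Gpn2 and Ammecr1, and nearest to Ezh2 were Txnip, Eps8l2 and Espn. With only 4 samples such likeness was common, since 1965 genes lay within 0.5 of Sox2, 3765 within 0.5 of Insm1 and 256 within 0.5 of Kit. Lgr5 had the fewest such neighbours, 42.

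**Figure D4:**
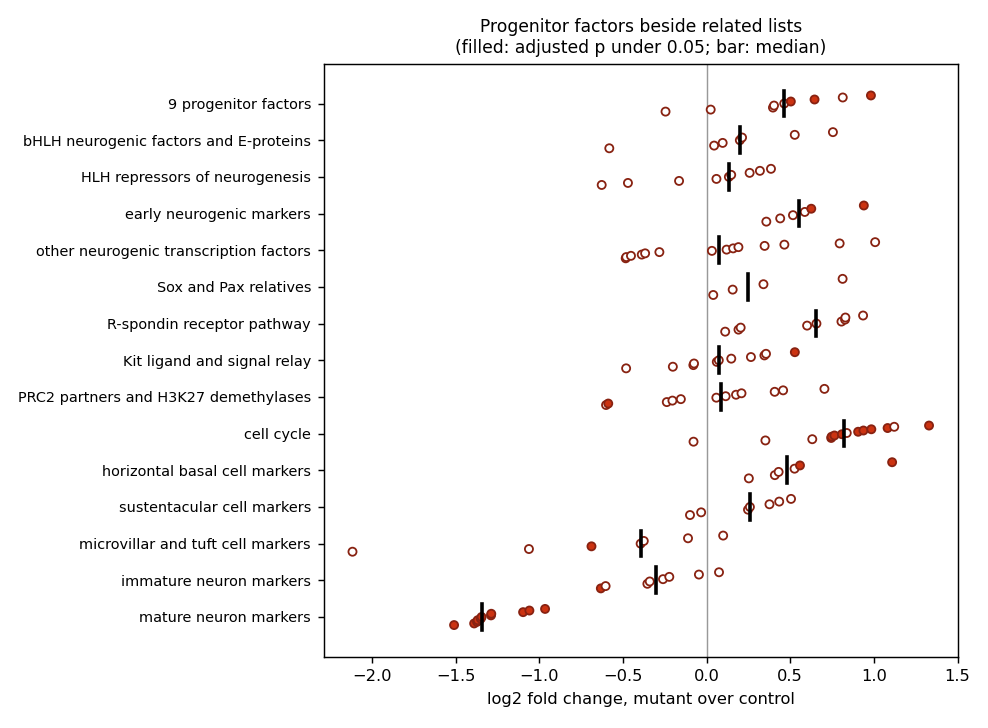
Log2 fold change of mutant over control for each tested gene of the 9 factors and of 14 related lists, 1 point per gene, filled at an edgeR adjusted p under 0.05, with black bars at list medians. The factors have a median of 0.46, cell cycle genes of 0.82 and mature neuron markers of -1.35, with all 11 of the last filled.

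Markers of the other cell types in the sort moved in both directions beside these factors. All 11 mature neuron markers were lower, with a median of -1.35, including the transduction channel genes Cnga2 at -1.29 (SE 0.28) and Cnga4 at -1.51 (SE 0.29). Their summed CPM was 17685 and 7794 in controls 1 and 2 and 9773 and 2263 in mutants 1 and 2. Of 6 horizontal basal cell markers 2 were higher, the keratin gene Krt15 at 1.11 (SE 0.18, edgeR adjusted p = 4.53e-07) and the growth factor receptor gene Egfr at 0.56 (SE 0.18, edgeR adjusted p = 0.0435). The sum of the horizontal basal cell markers was 1980 and 1391 CPM in controls and 2803 and 1843 CPM in mutants. Of 7 microvillar and tuft cell markers 1 was lower, the channel gene Trpm5 at -0.69 (SE 0.17, edgeR adjusted p = 0.00318). CPM is a share of the library, and the part of these changes in the values of the 9 factors was not tested.

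**Figure D5:**
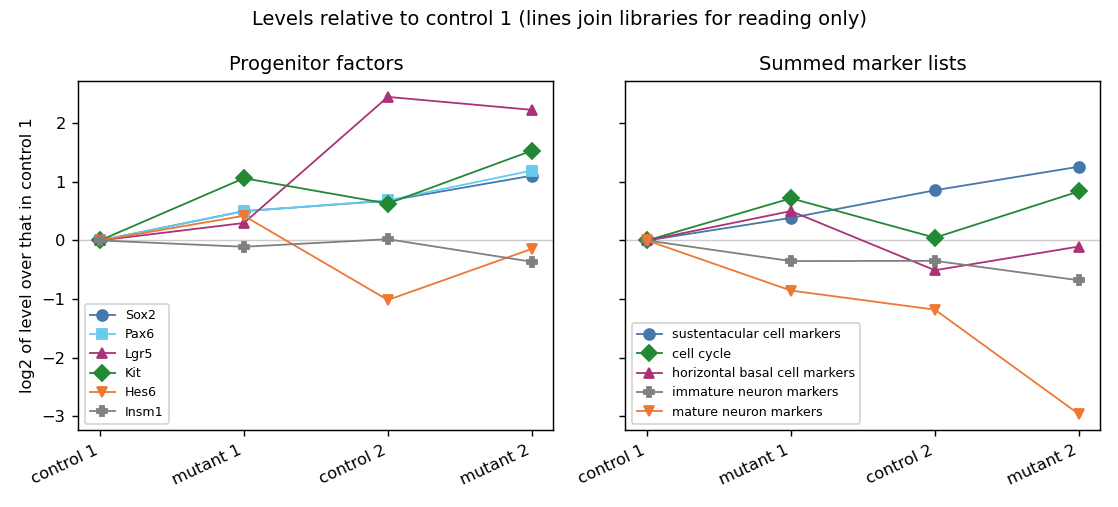
Log2 of the level in each library over that in control 1, for 6 of the factors (left) and for summed CPM of 5 marker lists (right). Sox2 and Pax6 rise in the same order of libraries as the summed sustentacular markers, mature neuron markers fall to -2.97 in mutant 2, and Lgr5 steps up to 2.45 in control 2.

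Markers of cells that a sort of olfactory mucosa could carry over were also present. Of 10 leukocyte markers 8 were tested and 0 passed, with sums of 452 and 728 CPM in controls and 228 and 649 CPM in mutants. Lyz2 alone gave 223 and 693 CPM of the controls and 154 and 584 CPM of the mutants. The median log2 ratio of the 8 markers was -1.59 in the first pair and 0.85 in the second, so the signs were opposite, a difference that was not tested. Lyz2 and C1qa, the most abundant, had log2 fold changes of -0.39 (SE 0.24) and -0.56 (SE 0.47). Of 4 respiratory ciliated cell markers counted 2 were lower, Foxj1 at -0.80 (SE 0.21, edgeR adjusted p = 0.00458) and Tekt1 at -0.74 (SE 0.20, edgeR adjusted p = 0.00896). Of 5 glia markers 1 was lower, Fabp7 at -1.04 (SE 0.22, edgeR adjusted p = 0.000239). In these 3 lists 0 genes were higher.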

How the data were processed

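RNA was extracted from sorted cells with TRIzol, treated with DNase, depleted of ribosomal RNA and sequenced as single-end reads. The authors removed ribosomal reads with Bowtie2 (2.0.6), aligned the remainder to mm10 with TopHat2 (2.0.7) and counted reads per gene with HTSeq, and these raw counts were deposited. The strand setting of the count and the annotation version are not given in the sources used here. The 5 tally lines of each file were left out. Genes above 1 CPM in at least 2 samples were kept, which left 15438. edgeR 4.0.16 in R 4.3.3 was used with TMM factors and terms for genotype and experimental group. Coefficients were tested with the likelihood-ratio test, adjusted by the Benjamini-Hochberg method over all genes tested, with a threshold of 0.05. SE are Wald errors, intervals are 1.96 SE on either side, and ratios within a pair use log2 CPM with a prior count of 2 and have no test. With experimental group in the model, p-values rest on the difference between the 2 littermate ratios, with dispersions that share information across genes. They do not measure the whole spread between the 4 mice. Floors cover counting error only. Experimental group is given in the labels, and the study methods state that mutant and control of a group were littermates. Samples of 1 group deviated together from the mean of their genotype across genes (r = 0.52).

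The factors and gene lists were chosen with earlier results of these data known. Named genes are all factors, in each list the genes past the threshold (up to 4, smallest p first) or otherwise the 2 most abundant, and the 3 nearest genes of each factor. Of the nearest genes, 1 is not reported here. Coordinates and lengths are from GENCODE vM21. Alternatives were the quasi-likelihood test, DESeq2 1.42.0, no replicate block, RLE factors, no filter, more than 1 CPM in all 4 samples, counts thinned to 14833396 per library, each pair alone and each library left out. Subtraction of a background from mutant 1 was chosen after seeing the data. The tests were tried on simulated counts.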

Additional observations from a re-analysis of the deposited data

Results flagged for a closer look

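The ratio of mutant to control took opposite signs in the experimental groups for 2 of the factors, and these differences between pairs were not tested, since each pair is 1 mutant and 1 control. For Neurog1 the log2 ratio was -0.12 in the first pair and 0.92 in the second, a difference of 1.04, with 78 reads in control 2 and 105 to 163 reads in the other libraries. For Lgr5 it was 0.29 in the first pair and -0.22 in the second, a difference of -0.51. In mutant 1, 39.4% of uniquely aligned reads lay outside annotated genes, above the 23.8% and 24.9% of the controls.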

How the results depend on the processing

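The number of factors higher in mutants was 3 in the reported model. It was 1 with edgeR's quasi-likelihood test and 0 with no replicate block, and it was 2 to 4 with DESeq2, RLE factors, either filter, thinned counts or the background subtracted from mutant 1. DESeq2 called Kit, Hes6 and Sox2 rather than Kit, Hes6 and Pax6. When each library was left out in turn, which is possible only without the block, the count was 0 in each case, with 0 to 2 factors at an unadjusted p under 0.05. Over all genes, 197 were higher in the reported model, compared with 115 by the quasi-likelihood test, 6 with no replicate block and 3 to 33 when a library was left out (33 without control 1, 27 without control 2, 3 without mutant 1 and 19 without mutant 2). The 664 lower genes became 0 with no replicate block, with 189 at an unadjusted p under 0.05, and 0 to 5 when a library was left out. For Kit the SE was 0.48 without the block and 0.24 with it. No factor was lower by any test, in edgeR or DESeq2, also at an unadjusted p under 0.05. The sign reversed for Neurog1 without control 2 (-0.012). For Lgr5 it reversed with no replicate block (-0.13), with thinned counts (-0.042), with the background subtracted (-0.031), without control 1 (-0.89) and without mutant 2 (-1.37). Kit kept its call under the quasi-likelihood test, DESeq2, RLE factors, both filters, thinning and subtraction, and lost it without the block. The 3 higher calls and 1 lower call between experimental groups kept their number in each alternative with the block. With 78 to 163 reads, Neurog1 had an SE of 0.53, against 0.16 to 0.30 for the other factors.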
